A study of Mus musculus with 6 samples.

Results

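DNA methylation of round spermatids was set against that of 2 unedited lines of mouse haploid embryonic stem (ES) cells, 3 of the 6 libraries of the study. Round spermatids are the haploid germ cells of the testis in the stage after meiosis. The wild-type (WT) lines are androgenetic haploid ES cells (AG-haESCs), derived from androgenetic blastocysts, whose chromosomes come from a sperm only. All 3 libraries are labelled as strain C57BL/6. WT replicate 1 was at passage 31 and WT replicate 2 at passage 18, and the labels say that both grew on feeders, in an ES medium that held the 2i inhibitors of kinases. The double-knockout lines were not used. The labels do not say whether the WT lines came from separate embryos, how many animals gave the spermatids, or how pure they were.

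The assay was reduced representation bisulfite sequencing (RRBS), which cuts DNA at CCGG and reads methylation as the share of reads in which a cytosine escaped bisulfite conversion. A position was used where it had at least 10 reads in all 3 libraries on chromosomes 1 to 19. This left 283425 of the 1219207 positions listed in any of these libraries. Tiles of 500 bp with at least 3 such positions numbered 31756 of the 427988 tiles that held any position, or 7.42%, and the level of a tile is the percentage of methylated reads summed over its positions. Summed reads at listed positions came to 293920118 in round spermatids, 227097459 in WT replicate 1 and 255726544 in WT replicate 2. The median depth at the common positions was 459, 371 and 384 reads. Round spermatids have 1 library, so no p-value is given, and the spread of WT values is the SD over 2 lines. The SD may be technical or may belong to passage, which differed between the lines and cannot be told apart from the line.

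Male germ cells acquire dense DNA methylation before meiosis and keep it in spermatids and sperm, except at CpG-rich promoters. After fertilisation most of it is erased from the paternal genome, while imprinting control regions and some repeats resist. Culture of ES cells in 2i is known to lower methylation further, through weaker maintenance and less activity of the enzymes that add it. Genes used in the germ line have promoters that are unmethylated in germ cells and are silenced with the help of methylation in other cells.

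The sequences at gene starts show the kinds of promoter that differed. Each is the 250 bases before a gene start on the gene's strand, from the RefSeq promoter table (GRCm38.p6, the same assembly as mm10), in lower case with the measured CpGs in capitals. The first set was fully methylated in round spermatids and low in both lines. It holds Proz (chr8:13060658-13060907, + strand; protein Z, a vitamin K-dependent plasma protein), Plch2 (chr4:155019429-155019678, - strand; a phospholipase C) and Ldhd (chr8:111630337-111630586, - strand; D-lactate dehydrogenase). These genes, and those of the sequences that follow, were picked for display after their values were seen.
Proz: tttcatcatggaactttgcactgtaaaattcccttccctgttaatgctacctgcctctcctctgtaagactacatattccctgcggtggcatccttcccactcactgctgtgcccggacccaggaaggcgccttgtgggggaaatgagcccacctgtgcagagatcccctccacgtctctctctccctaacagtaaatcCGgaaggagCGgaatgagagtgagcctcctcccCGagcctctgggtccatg
Plch2: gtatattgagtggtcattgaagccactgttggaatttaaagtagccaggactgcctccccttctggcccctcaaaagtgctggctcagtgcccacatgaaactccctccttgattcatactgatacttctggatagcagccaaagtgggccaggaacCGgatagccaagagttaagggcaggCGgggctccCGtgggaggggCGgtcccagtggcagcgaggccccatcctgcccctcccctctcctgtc
Ldhd: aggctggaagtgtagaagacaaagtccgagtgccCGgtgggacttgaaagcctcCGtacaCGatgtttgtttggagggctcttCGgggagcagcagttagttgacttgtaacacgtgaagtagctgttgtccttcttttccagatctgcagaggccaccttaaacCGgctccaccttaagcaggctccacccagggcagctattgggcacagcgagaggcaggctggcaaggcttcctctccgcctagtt
Across the capitals, Proz was at 100% in round spermatids, 1.47% in WT replicate 1 and 1.79% in WT replicate 2. Plch2 was at 100%, 0% and 0%, with 384, 1620 and 2333 reads summed over its 4 measured CpGs. Ldhd was at 100%, 14.2% and 3.53%. All 3 stretches have few CpGs, at 7, 5 and 9 in 250 bases.

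The second set was also fully methylated in round spermatids but kept part of the methylation in a line. It holds Lcat (chr8:105943403-105943652, - strand; lecithin-cholesterol acyltransferase) and Apoc2 (chr7:19677942-19678191, - strand; apolipoprotein C-II, a cofactor of lipoprotein lipase).
Lcat: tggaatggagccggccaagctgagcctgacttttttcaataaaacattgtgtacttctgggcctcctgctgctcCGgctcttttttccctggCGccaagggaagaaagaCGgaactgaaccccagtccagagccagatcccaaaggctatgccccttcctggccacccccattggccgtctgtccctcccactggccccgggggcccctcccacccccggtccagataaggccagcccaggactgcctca
Apoc2: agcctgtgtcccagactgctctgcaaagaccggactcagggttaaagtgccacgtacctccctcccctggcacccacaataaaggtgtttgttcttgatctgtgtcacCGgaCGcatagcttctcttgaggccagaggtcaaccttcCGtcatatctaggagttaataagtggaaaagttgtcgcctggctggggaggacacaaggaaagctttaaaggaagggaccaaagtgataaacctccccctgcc
Lcat was at 100% in round spermatids, 96% in WT replicate 1 and 24.8% in WT replicate 2, from 685, 125 and 226 reads. Apoc2 was at 100%, 46.8% and 39.0%, from 65, 293 and 569 reads. These promoters are as poor in CpGs as those of the first set, with 7 and 6 in the 250 bases. In the third set the order was the reverse, with round spermatids near 0% and both lines above them. It holds Asz1 (chr6:18109062-18109311, - strand; a germ cell protein of the piRNA pathway) and Slc25a31 (chr3:40708621-40708870, + strand; the testis form of the mitochondrial ADP/ATP carrier).
Asz1: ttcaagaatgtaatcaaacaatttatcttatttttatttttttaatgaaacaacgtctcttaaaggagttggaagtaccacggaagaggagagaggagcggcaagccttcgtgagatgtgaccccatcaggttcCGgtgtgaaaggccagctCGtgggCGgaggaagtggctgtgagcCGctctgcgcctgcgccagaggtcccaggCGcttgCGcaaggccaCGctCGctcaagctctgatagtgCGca
Slc25a31: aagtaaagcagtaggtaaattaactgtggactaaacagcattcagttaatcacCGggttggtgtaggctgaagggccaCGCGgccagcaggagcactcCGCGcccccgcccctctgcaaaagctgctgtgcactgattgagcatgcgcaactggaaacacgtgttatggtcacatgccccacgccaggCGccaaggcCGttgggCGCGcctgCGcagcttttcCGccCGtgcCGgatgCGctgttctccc
Asz1 was at 0.00973% in round spermatids, 6.81% in WT replicate 1 and 11.4% in WT replicate 2. Slc25a31 was at 0.0308%, 4.55% and 2.07%. The methylation of the lines sat on a few of the capitals, and in Asz1 on different ones in each line. In Asz1 the CpG at 92 bases before the start was at 48.7% in WT replicate 1 and 0% in WT replicate 2, while the CpG at 42 bases before it was at 0% and 35.5%. Both were at 0% in round spermatids. In Slc25a31 the CpG at 152 bases before the start was methylated in both lines, at 7.26% and 18.7%, and the other CpGs above 1% were so in WT replicate 1 only.

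The spermatid profile was made mostly of nearly full and nearly empty tiles, and the full ones were on average lower in the lines. Over all 31756 tiles the mean level was 26.2% in round spermatids, 9.69% in WT replicate 1 and 4.96% in WT replicate 2, which is 7.32% ± 3.34 (SD, n = 2) in WT. The difference of 18.9 points is larger than the spread between the lines. Round spermatids were at 80% or more in 7055 tiles (22.2% of all tiles), called spermatid-methylated here, and under 10% in 21769. They were above both lines by at least 25 points in 8140 tiles (25.6%) and below both by as much in 112 (0.353%). The second rule has little room, since only 1370 tiles stood at 25% or more in both lines, and its count became 213 with WT replicate 2 alone and 741 with WT replicate 1 alone. In those 1370 tiles round spermatids were at 80% or more in 989 and under 10% in 113.

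The spermatid-methylated tiles had a mean of 97.4% in round spermatids, 27.3% in WT replicate 1 and 14.4% in WT replicate 2 (WT 20.9% ± 9.07, SD, n = 2). The medians of the lines were 23.5% and 9.75%. WT replicate 1 was the higher of the lines in 72.5% of these tiles and WT replicate 2 in 25.1%. Intermediate levels were common in the lines, as 40.5% of the tiles lay between 20% and 50% in WT replicate 1 and 24.1% in WT replicate 2. Levels of 80% or more, which define these tiles in round spermatids, occurred in 2.27% and 0.468% of them in WT replicates 1 and 2. A level of exactly 0% occurred in 7.23% and 13.1%.

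**Figure D1:**
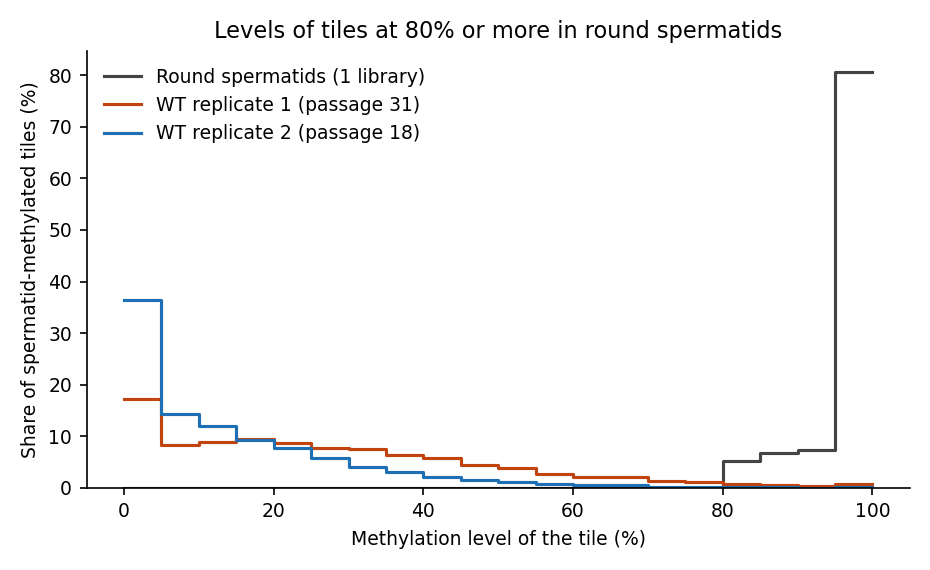
Share of the 7055 spermatid-methylated tiles (y axis, percent) by methylation level in bins of 5 points (x axis, percent) in round spermatids (grey), WT replicate 1 (orange) and WT replicate 2 (blue). The spermatid curve starts at 80% by the choice of tiles, and the lines spread from 0% upward, with medians of 23.5% and 9.75%.

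The limits of 80% and of 3 positions cut through a continuum. Tiles between 75% and 80% in round spermatids (364 tiles) had means of 26.0% and 13.2% in WT replicates 1 and 2, and tiles between 80% and 85% (372) had 27.7% and 14.3%. Tiles with 2 positions (14094 tiles, left out) were at 61.9% in round spermatids on average and at 20.4% and 10.3% in the lines. Tiles with 3 positions (8272, used) had 51.8%, 18% and 9.29%. The tiles used hold less spermatid methylation than the sparser ones beside them.

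A tile was called lost where round spermatids reached 80% and both lines were below 20%, and kept where both lines were at 50% or more. These are names for a difference between samples, as no cell was followed over time. Lost tiles numbered 2584 (8.14% of all tiles, 36.6% of the spermatid-methylated ones) and kept tiles 129 (0.406% and 1.83%). The other 4342 lay between, or differed between the lines. Both counts depend on asking for both lines. With WT replicate 2 alone, 5074 tiles were lost and 280 kept, and with WT replicate 1 alone 3096 were lost and 1102 kept.

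Tiles at 50% or more were compared between the lines. Of the 1102 tiles at 50% or more in WT replicate 1, 129 were so in WT replicate 2 (11.7%), which is 46.1% of the 280 in WT replicate 2. Over all 7055 spermatid-methylated tiles, 3.97% were at 50% or more in WT replicate 2 and 15.6% in WT replicate 1, so both shares lay above those of all such tiles. In 546 tiles WT replicate 1 was at 50% or more and WT replicate 2 under 20%, and 56 tiles showed the opposite. Across the 7055 tiles Pearson's r between the lines was 0.331 and Spearman's correlation 0.341, as a description of tiles that share both libraries. The median gap between the lines was 14.7 points.

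**Figure D2:**
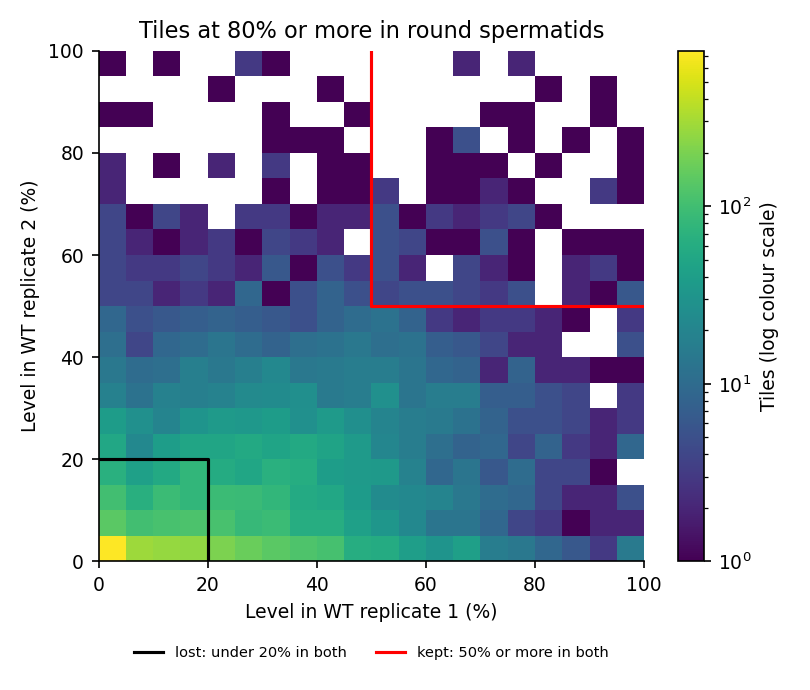
Levels of the 7055 spermatid-methylated tiles in WT replicate 1 (x axis, percent) and WT replicate 2 (y axis, percent), as tiles per cell of 5 by 5 points on a log colour scale. The black box holds the 2584 lost tiles and the red box the 129 kept tiles, and the lower right holds more tiles than the upper left (546 against 56 past the limits of 50% and 20%).

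Part of this scatter is also present within a line. In the spermatid-methylated tiles, 27627 cytosines were measured, and the median SD of the cytosines of a tile was 0.250 points in round spermatids, 17.8 in WT replicate 1 and 11.4 in WT replicate 2. Of these cytosines 27.8% and 43.6% were at exactly 0% in WT replicates 1 and 2, and 0.706% in round spermatids. Picking tiles for high spermatid methylation itself holds down the spermatid SD and the spermatid share at 0%. These spermatid values are therefore no like-for-like measure of uniformity against the lines. The cytosines on the opposite strands of a CpG are usually methylated alike, because the maintenance enzyme copies the mark after replication. For 296 isolated CpGs measured on both strands and at 80% or more on both in round spermatids, the median difference between strands was 0.323 points in round spermatids, 26.3 in WT replicate 1 and 8.27 in WT replicate 2. The strands were at least 25 points apart at 50.3% and 32.4% of these CpGs in WT replicates 1 and 2. Round spermatids had none (0) by the choice of these CpGs, which must be at 80% or more on both strands. That choice also keeps their median difference small.

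**Figure D3:**
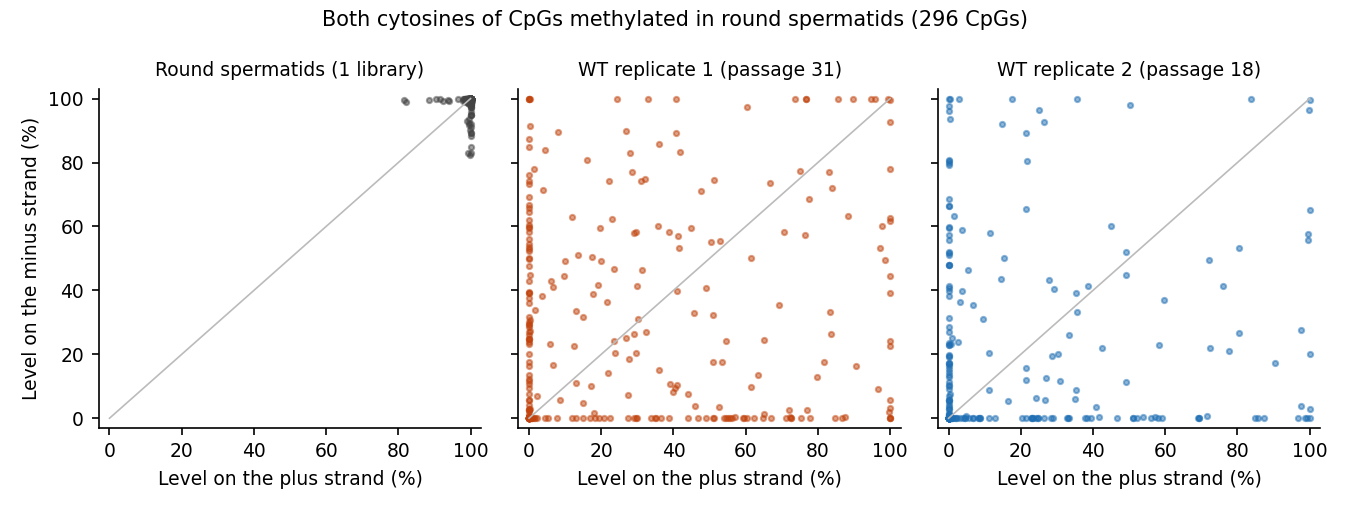
Methylation of the plus-strand cytosine (x axis, percent) and minus-strand cytosine (y axis, percent) of 296 CpGs at 80% or more on both strands in round spermatids, 1 panel per library, 1 point per CpG, with the line of equality. Spermatid points sit in the upper corner by choice, and many points of WT replicate 1 and WT replicate 2 lie along the axes, where 1 strand is at 0%.

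The strands of a CpG are read separately. Median reads on the plus strand were 148.5 in round spermatids, 175.5 in WT replicate 1 and 185.5 in WT replicate 2. The mean levels of the strands were nearly equal, at 28.98% and 29.3% in WT replicate 1 and at 16.3% and 16.8% in WT replicate 2. Means over the 296 CpGs were thus the same on both strands to within 1 point, while levels at single CpGs of a line often were not. How many DNA molecules stand behind the reads was not tested.

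By distance to genes, spermatid methylation was far higher away from gene starts than beside them, and the lines differed less by distance at spermatid-methylated tiles. Distances run to the nearest listed start. Only 25747 of 47038 RefSeq genes have strand and so a listed start, and a tile near another gene can count as far. Within 0.5 kb of the nearest listed gene start the mean over all tiles was 1.71% in round spermatids, and 128 of 10324 tiles were spermatid-methylated. From 10 to 50 kb it was 49.3%, with 42.7% of tiles spermatid-methylated, and over 50 kb it was 44.2%, with 37.0%. Among spermatid-methylated tiles, those within 0.5 kb had means of 23.8% and 12.4% in WT replicates 1 and 2, those at 10 to 50 kb 27.3% and 14.6%, and those over 50 kb 30.2% and 16.6%. The lowest means lay between these, at 19.8% from 0.5 to 1 kb in WT replicate 1 and 11.3% from 1 to 2 kb in WT replicate 2.

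The share lost fell over the same range, from 46.9% within 0.5 kb and 50.6% from 0.5 to 1 kb to 35.6% from 10 to 50 kb and 31.9% over 50 kb. The share kept had no such order, as it was 2.34% within 0.5 kb (3 of 128 tiles) and 2.47% from 0.5 to 1 kb (2 of 81). It was then 0% from 1 to 2 kb (245 tiles), 0.704% from 2 to 5 kb, 1.26% from 5 to 10 kb, 1.73% from 10 to 50 kb and 2.997% over 50 kb. Tiles over 50 kb away stood 5.84 ± 1.77 points (SD, n = 2) above tiles under 2 kb in the mean of the lines. Both lines showed this direction, by 7.10 points in WT replicate 1 and 4.59 in WT replicate 2. It was 6.11 points within tiles of 3 to 4 positions, so it was also present at 1 density.

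Tiles far from listed gene starts and outside genes held the most. Inside genes the spermatid-methylated tiles had means of 26.6% and 14.1% in WT replicates 1 and 2, and outside genes 29.1% and 15.4%. Outside genes and over 50 kb from a start (696 tiles) they had 32.8% and 17.7%, with 3.88% kept. Kept tiles lay inside genes in 59.7% of cases and lost tiles in 73.6%. Their median distances to a listed gene start were 36643 bp and 17108.5 bp. Kept tiles also had fewer reads, with medians of 575, 739 and 644 in round spermatids and WT replicates 1 and 2 against 785.5, 1296.5 and 1483 in lost tiles. The kept share fell from 2.54% of the 1769 spermatid-methylated tiles with the fewest reads to 0.907% of the 1764 with the most. The part of depth in the difference between kept and lost tiles was not tested.

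**Figure D4:**
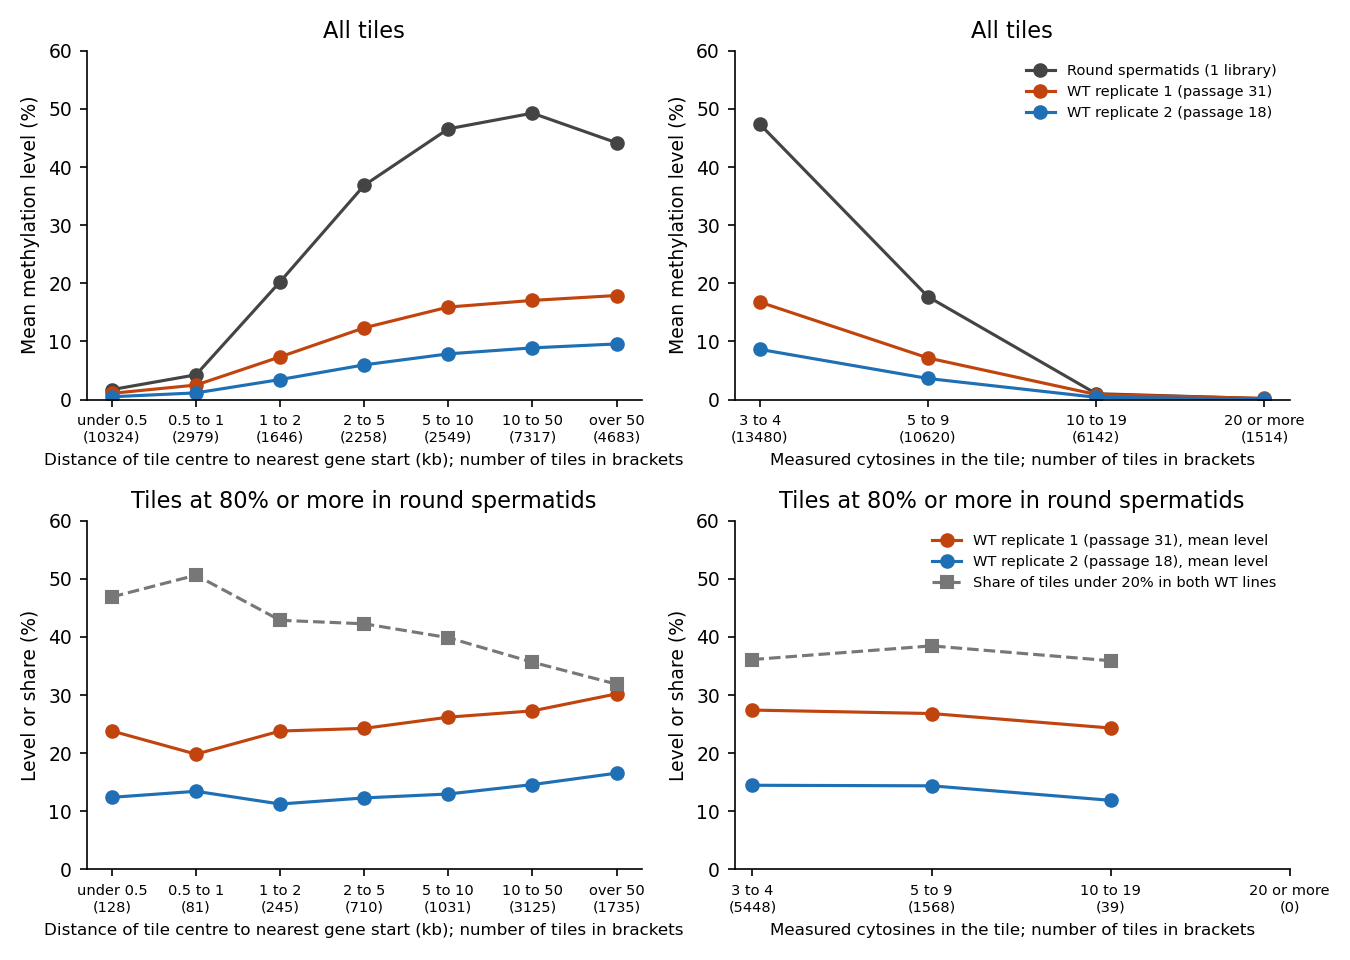
Left, by distance of the tile centre to the nearest gene start (kb), and right, by number of measured cytosines in a tile: mean methylation level (percent) of all tiles (top) and of spermatid-methylated tiles (bottom), with the share of the latter under 20% in both WT lines (grey squares). Gene starts are the listed ones only. Points are means over tiles in 1 library and no error bars are drawn. Round spermatids rise from 1.71% to 49.3% at 10 to 50 kb and are at 44.2% beyond, while the lines at spermatid-methylated tiles lie between 19.8% and 30.2% and between 11.3% and 16.6%. By density, round spermatids fall from 47.4% to 0.152% over all tiles, and the lines differ little at spermatid-methylated tiles.

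Spermatid methylation fell steeply with cytosine density, while at spermatid-methylated tiles the level of the lines differed little by density. Tiles of 3 to 4 measured positions were at 47.4% in round spermatids and at 16.8% and 8.64% in WT replicates 1 and 2. Tiles of 5 to 9 were at 17.7%, 7.16% and 3.62%, and tiles of 10 to 19 at 1.01%, 0.870% and 0.386%. With 20 or more positions all 3 libraries were near 0%, at 0.152%, 0.194% and 0.0937%, and none (0) of 1514 tiles was spermatid-methylated.

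Among spermatid-methylated tiles, those of 3 to 4 positions had means of 27.4% and 14.5% in WT replicates 1 and 2 and those of 5 to 9 had 26.8% and 14.4%. The 39 tiles of 10 to 19 positions had 24.3% and 11.9%. Tiles of 5 or more positions differed from tiles of 3 to 4 by -0.404 ± 0.355 points (SD, n = 2) in the mean of the lines. Lost tiles made up 36.1% of those with 3 to 4 positions and 38.5% of those with 5 to 9. At tiles under 10% in round spermatids, the lines were higher where positions were sparse: 5.44% and 2.41% with 3 to 4 positions, and 0.192% and 0.0934% with 20 or more.

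CpGs counted in sequence gave the same order at promoters. Of 5377 promoter sequences of 300 bases with measured positions, 40 were at 80% or more in round spermatids. Of these, 3 had 0 to 4 CpGs, 24 had 5 to 9, 13 had 10 to 19 and none (0) had more. The mean level in round spermatids was 23.1% in the 128 promoters with 5 to 9 CpGs, 1.62% in the 1122 with 10 to 19 and 0.109% in the 2118 with 30 or more. The 40 promoters had a median of 7 CpGs, against 27 in all measured promoters and 7 in the whole table of 32851. In the lines the 24 promoters with 5 to 9 CpGs were at 21.6% and 12.4% and the 13 with 10 to 19 at 29.6% and 10.9%.

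The lost tiles with the widest gap stood at 100% in round spermatids and 0% in both lines. Among the spermatid-methylated tiles, 168 were at exactly 0% in both lines. The 12 of these named here by gap and then by reads held 3 to 5 positions, and 11 lay inside a gene. The first was in Ak8, an adenylate kinase gene (chromosome 2, 28724001 to 28724500), with 1092 reads in round spermatids, 2660 in WT replicate 1 and 2883 in WT replicate 2. Another lay in Sipa1l2, a GTPase-activating protein gene (chromosome 8, 125492501 to 125493000), with its centre 83 bp from a start of that gene. A tile in Prdm16, a regulator of brown fat and blood stem cells (chromosome 4, 154544001 to 154544500), held 5 positions. The lowest Wilson bound (95%) of the spermatid level over the 12 tiles was 99.2%.

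The other lost tiles named were in genes of several kinds. Esrrg encodes an orphan nuclear receptor, Kcnj6 a potassium channel, Dok7 an adaptor of the neuromuscular junction and Metap1d a mitochondrial aminopeptidase. Tiles in Jmjd1c, Sh3d21 and Rhpn2 also lay inside genes, and the tile outside named genes lay 203935 bp from Penk, the proenkephalin gene. In each of these tiles every read of both lines was unmethylated, from at least 474 reads per library.

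Kept tiles were fewer and farther from listed gene starts. Of the 12 with the highest level in the lower line, 7 lay outside named genes. Genes with only a model name are not counted as named, so such a tile may lie inside one of them. The tile in Ripk4, a kinase gene of epidermal differentiation (chromosome 16, 97743501 to 97744000), was at 99.6% in round spermatids, 91.4% in WT replicate 1 and 92.1% in WT replicate 2, from 498, 314 and 392 reads. A tile nearest to Ythdf3, a reader of methylated adenosine in RNA, was at 87.5%, 93.2% and 88.9%, but from only 80, 59 and 54 reads. In the Ripk4 tile both lines came within 10 points of round spermatids, and in the Ythdf3 tile both were above them.

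A tile in Tldc2 was at 100% in round spermatids and 98.9% and 80.9% in WT replicates 1 and 2. A tile 973405 bp from Hace1, a ubiquitin ligase gene, was at 99.96%, 80.4% and 91.3%, from at least 1491 reads per library. The tile in Tbc1d4, a Rab GTPase-activating protein gene of glucose uptake, was at 100%, 78.5% and 88.4%. WT replicate 1 was the higher line in 6 of the 12 tiles. The others named lay in Osbpl10 and Otogl or nearest to Clnk, Mterf1a, Trps1, Foxp1 and Sytl2, and the lower line was between 74.5% and 81.0% in each of these. Cytosines of a kept tile could differ widely in a line. The widest SDs in WT replicate 2 were 57.6 points near Clnk, 42.2 in Osbpl10 and 38.5 in Tldc2. The tile near Sytl2 had 50 in WT replicate 1 and only 64, 88 and 56 reads. In Ripk4 the SDs of the lines were 7.34 and 7.43.

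The position of kept tiles relative to each other was also counted. In windows of 1 Mb the 129 tiles fell into 126 windows, and 3 windows held 2 of them, the most in any. Of the kept tiles, 16 had another spermatid-methylated tile as nearest neighbour within 10 kb, and none (0) of these neighbours was kept. Over all spermatid-methylated tiles with such a neighbour, 18 of 1626 neighbours were kept (1.11%), so 16 tiles are too few to set the count of 0 apart. The neighbours had means of 46.6% in WT replicate 1 and 16.5% in WT replicate 2, against 26.8% and 13.7% for the 1626 tiles with such a neighbour.

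In some tiles the lines stood at opposite ends. A tile on chromosome 12 (112256501 to 112257000) lay 75003 bp from Kif26a and 1191 bp from a listed start of the model gene Gm36894. It was at 100% in round spermatids and WT replicate 1, from 1184 and 1135 reads, and at 0% in WT replicate 2 from 3185. Tiles in Cad, Ddit3 and Cdh23 and one nearest to Mpdz had the same pattern, and the tile in Camta1 was at 100% in round spermatids, 0% in WT replicate 1 and 100% in WT replicate 2. The Cdh23 and Camta1 tiles rest on 30 and 40 reads in the line with the fewest. Of these 6 tiles WT replicate 1 was the methylated line in 5.

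Few tiles were methylated in both lines and not in round spermatids. Tiles with at least 50% in both lines but under 10% in round spermatids, called line-only, numbered 10 (0.0315% of all tiles), and all tiles at 50% or more in both lines 183. Of these 183, 129 were at 80% or more in round spermatids and 44 between 10% and 80%. The count of 10 became 31 with WT replicate 2 alone and 157 with WT replicate 1 alone. A tile 110625 bp from Diras2, a Ras-like GTPase gene (chromosome 13, 52393501 to 52394000), was at 0% in round spermatids from 330 reads, which allows up to 0.909%, and at 100% in both lines.

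The tile in Gsto2, a glutathione transferase gene, was at 0% in round spermatids, 66.7% in WT replicate 1 and 66.2% in WT replicate 2. Its cytosines were not alike in the lines, with an SD of 57.7 and 56.7 points over 3 positions. A tile 123 bp from Fga, the fibrinogen alpha chain gene, was at 3.29%, 61.4% and 61.3%, and one 283430 bp from Grik2, a glutamate receptor gene, at 0%, 95.2% and 70.1%. Their cytosines were also unlike in WT replicates 1 and 2. The SD over 3 positions was 49.7 and 49.1 points near Fga and 57.6 and 57.4 near Grik2. Of the 8 tiles of this kind that were named, 6 lay outside named genes, the rest of these being nearest to Scgb2b4-ps, Klhl42 and Ido2. The tile in Sphkap, at 0%, 54.3% and 57.1%, lay inside a gene. Its SD over 7 positions was 17.2 points in WT replicate 1 and 50.8 in WT replicate 2.

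At gene starts, windows from 1 kb outside to 0.5 kb inside a gene were measured for 11083 genes. Where strand was not given, the gene end with more measured positions was taken, so 3066 of these windows may be 3′ ends. Spermatid-methylated windows numbered 331 (2.99%), with means of 97.5% in round spermatids and 25.7% and 14.6% in WT replicates 1 and 2. Lost windows numbered 133 (1.20%), kept windows 4 (0.0361%) and windows with at least 50% in both lines but under 10% in round spermatids 1 (0.00902%). Lost windows were 237 with WT replicate 2 alone and 157 with WT replicate 1 alone. With strand known there were 133 spermatid-methylated windows, of which 58 were lost and 2 kept.

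Among the lost windows with strand known, Syna, the gene of syncytin A, which fuses placental cells, was at 100% in round spermatids, 2.82% in WT replicate 1 and 0.0482% in WT replicate 2. Tnfsf13, which encodes the B cell cytokine APRIL, was at 97.6%, 1.06% and 1.75%. Mb, the myoglobin gene, was at 99.8%, 6.87% and 6.13%. With Proz these were the 4 genes of known strand among the 12 named. All 4 were below 10% in both lines, which follows from the rule of the widest gap. The other 8 have no strand here: Snord49a and Snord49b, which share their positions, Zfp362, Pla2g2a, Tmem52, Zfhx2os, Rps19-ps11 and Adcy8.

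Windows where the lower line was highest came mostly from genes without strand. Slit1, an axon guidance gene, was at 100% in round spermatids, 69.6% in WT replicate 1 and 43.8% in WT replicate 2. With strand known, Cavin4, a gene of muscle caveolae, was at 99.1%, 42.9% and 29.7%, and Osgin1 at 96.3%, 28.8% and 27.8%. Both lines were below round spermatids in each of these 3. Nat14 and Apoc2 also have strand, while Dhx58, Cox18, Tpt1-ps1, Rpl12-ps1 and Erp27 do not.

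Windows methylated in the lines and not in round spermatids were few. Round spermatids were below both lines by at least 25 points in 11 windows (0.0993%) and above both by as much in 409 (3.69%). Wfdc15a, a gene of the whey acidic protein family, was at 4.51% in round spermatids, 43.9% in WT replicate 1 and 60.8% in WT replicate 2. Cav3, the muscle caveolin gene, was at 1.35%, 28.99% and 24.3%, and Abca4, a retinal transporter gene, at 0.0344%, 24.9% and 18.6%. In all 3 both lines were at least 18 points above round spermatids. Taar4, without strand, and Ppp1r14bl were also named by this rule, as was the germline gene Sycp3.

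Germline gene starts were nearly unmethylated in round spermatids and partly methylated in the lines. Of 26 listed genes 11 were measured, all with strand. Their median was 0.0219% in round spermatids, 11.1% in WT replicate 1 and 3.35% in WT replicate 2, against 0.0289%, 0.0199% and 0.0216% over all windows. Round spermatids were below both lines by at least 1 point at 6 of the 11 (54.5%), against 3.01% of all windows, with strand or without. The same list is known from earlier work on these libraries to be lower in spermatids, so this count is a description and no independent support.

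Sycp3, which encodes a protein of the synaptonemal complex, was at 0% in round spermatids, 55.2% in WT replicate 1 and 22.0% in WT replicate 2. Hormad1, which encodes a protein of the meiotic chromosome axis, was at 0%, 36.2% and 9.66%. Dazl, an RNA-binding regulator of germ cells, was at 0.0256%, 26.1% and 4.48%. At all 3 WT replicate 1 was the higher line, by over 20 points.

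Asz1 was at 0.0219% in round spermatids, 6.51% in WT replicate 1 and 10.95% in WT replicate 2 over its whole window. Ddx4, the germ cell helicase Vasa, was at 0.0102%, 3.22% and 3.35%. Tuba3b, a testis tubulin gene, was at 0%, 67.5% and 0%, so only WT replicate 1 was methylated. Round spermatids were also below both lines at Tex101 by at least 1 point, and at Mael and Slc25a31 by less. Sycp2 lay between the lines and Zfp42 was at 0% in all 3 libraries.

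**Figure D5:**
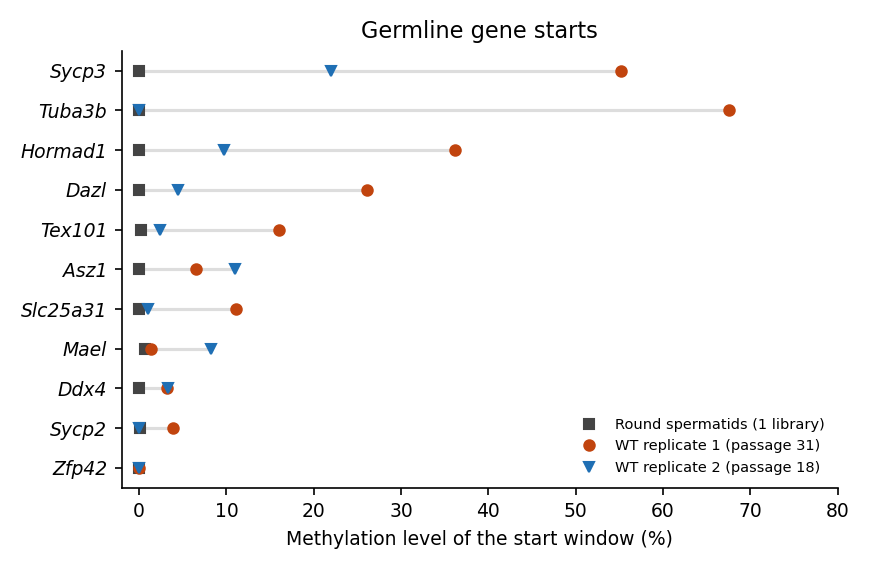
Methylation level (x axis, percent) of the start windows of the 11 measured germline genes, ordered by the mean of the lines, with 1 marker each for round spermatids (grey square), WT replicate 1 (orange circle) and WT replicate 2 (blue triangle). No error bars are drawn, as each marker is 1 library. All spermatid markers are at or under 0.639%, and WT replicate 1 reaches 67.5% at Tuba3b and 55.2% at Sycp3.

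Genes of other functions split between starts that were empty in all 3 libraries and single starts that differed. Of 9 measured pluripotency genes of 20 listed, 8 were under 1% in all 3 libraries, as were 9005 of all 11083 windows (81.3%), so nothing is read from such counts here or in the lists that follow. The exception was Utf1, a pluripotency cofactor, at 6.99% in round spermatids, 0.0242% in WT replicate 1 and 0.0233% in WT replicate 2. All 5 measured genes of the methylation machinery of 15 listed, among them Dnmt3b, Uhrf1 and Tet1, were under 1% throughout. Of 10 measured housekeeping genes of 16 listed, 9 were under 1% in all 3 libraries.

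Of 6 measured immune genes of 24 listed, 2 were lost, against 1.20% of all windows (133 of 11083). Irf7, a regulator of interferon genes, was at 99.9% in round spermatids, 11.7% in WT replicate 1 and 3.50% in WT replicate 2. Nfam1, an immune receptor gene, was at 99.95%, 9.22% and 15.7%. Syna was the 1 lost gene of 5 measured placental genes of 18 listed. Counts of 2 and 1 among so few genes say nothing about either list. Of 15 measured developmental regulators of 24 listed, none (0) was at 80% or more in round spermatids. Pax7, a factor of muscle stem cells, was the highest there at 16.0%, with 0% in both lines, while Tbx5, a heart and limb factor without strand, was at 0%, 13.0% and 0%.

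Spermatid genes were measured at 6 of 27, with 5 on known strand. Tssk1, a kinase gene of late spermatogenesis, was at 99.9% in round spermatids, 50.6% in WT replicate 1 and 5.89% in WT replicate 2. Tnp1, a transition protein gene active while histones leave the sperm nucleus, was at 0%, 28.3% and 2.57%. These 2 spermatid genes went in opposite directions, and in both WT replicate 1 was the higher line. Tssk3, Tssk6, Spata3 and Crem, the last without strand, were at 0%, 0.316%, 0.0741% and 0.0140% in round spermatids. Among them only Spata3 passed 1% in a line, at 7.17% in WT replicate 1.

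Starts of marker genes could not check the spermatid label, since 91.2% of all windows were under 1% in round spermatids. The germline starts above were empty there, as was Tnp1, and 10 of the 11 measured maternally methylated imprinted genes of 18 listed were under 1%. The exception was Peg13, without strand, at 100% in round spermatids, 0% in WT replicate 1 and 23.4% in WT replicate 2, from 52 reads in round spermatids. Of 6 paternally methylated imprinted genes only the start of Zdbf2 was measured, at 0.0586%, so the paternal imprint was not read in these windows.

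Of 6 measured genes of testis somatic cells of 13 listed, 5 were under 1% in round spermatids, and Clu, without strand, was at 100%, with 18.1% and 10.9% in the lines. The 4 measured feeder fibroblast genes of 13 listed were at 0.0498% or less in round spermatids. In the lines Pdgfrb, without strand, was at 20.5% and 2.69% and Twist2 at 15.0% and 7.16%, while Twist1 was at 0.0689% and 0.183% and Fbln2 at 0% and 0.0663%. Methylation of these starts does not measure expression, and the share of feeder cells in the lines was not tested. As a sign of incomplete conversion, mitochondrial cytosines were at 0.0280% in round spermatids and at 0.0182% and 0.00759% in WT replicates 1 and 2.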

How the data were processed

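RRBS data of round spermatids and of 2 WT AG-haESC lines were grouped by source label. Per the labels' protocols, DNA was digested with MspI, ligated to methylated adapters, sized on a gel, converted with bisulfite and amplified. Bismark 0.12.2 and mm10 come from the submitters' processing notes. How reads were trimmed or deduplicated is not given in the sources used here. Per position, the deposited files hold the methylated count, the unmethylated count and their fraction, which matched the counts within 1e-09. All 41163 positions inside RefSeq promoter sequences lay at a CpG.

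Levels were computed from summed counts with Python 3.11.15, numpy 2.4.6, pandas 2.3.3 and scipy 1.17.1. The tile calls were run on simulated tiles with a single level each, which differed widely between round spermatids and lines or not at all. That run says nothing about levels near the limits. A read that covers several positions counts at each, and PCR copies cannot be told from separate molecules, so Wilson intervals (95%) and limits for a count of 0 (3 counts) cover counting error only.

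Distances run from tile centres to RefSeq gene starts. The promoter table gives strand and start for 25747 of 47038 genes, and the other genes gave no start to these distances. The exception is chromosome 18, which has no entries there, where both gene ends stood in. Exons were not assigned. Named regions are the 12 lost tiles with the widest gap, the 12 spermatid-methylated tiles and the 8 tiles under 10% in round spermatids with the highest lower line, and the 6 tiles with the widest gap between lines, then 12, 12 and 6 promoter windows by the first 3 of these rules, with no minimum level in the lines, ties going to more reads, 1 tile per gene and model names left out. All measured members of the gene lists may be named. A few items that these rules select are not reported here. The members and lists were chosen with earlier results of these data known. Alternatives changed read and position minimums, tile size, thresholds and lines.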

Additional observations from a re-analysis of the deposited data

Results flagged for a closer look

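The X chromosome was outside the comparison. Of its 698 tiles, 3 were higher in both WT lines than in round spermatids by at least 25 points, or 0.430% against 0.353% of tiles on chromosomes 1 to 19, and they are given because they lie in data not otherwise used. From 17251501 to 17252000 the level was 0% in round spermatids, 91.7% in WT replicate 1 and 39.8% in WT replicate 2. From 114656501 to 114657000 it was 15.1%, 47.2% and 46.6%, and from 150096501 to 150097000 it was 0%, 26.5% and 38.6%.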

How the results depend on the processing

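Several alternatives could not move a result and say nothing about its stability. Leaving out 1 of 2 lines cannot shift their mean by 1 SD, cannot change a count made in round spermatids alone, and tiles of 1 or 2 positions enter no class of the density comparison. The WT level of spermatid-methylated tiles was 14.4% to 27.3% without a line, against 20.9% with both. Dependence on density could not be computed with at least 5 positions. The share of tiles higher in round spermatids was 43.5% with 1 position and 10.4% with 5 positions, against 25.6%.

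The mean difference between round spermatids and lines was 15.1 points with at least 50 reads, 35.1 with 1 position, 7.28 with 5 positions and 14.4 with tiles of 200 bp. With at least 50 reads, tiles higher, spermatid-methylated, lost, kept and line-only numbered 5305, 4523, 1654, 83 and 6. With 1 position these were 29026, 28474, 11405, 802 and 75, with 408 lower. With 5 positions they were 1908, 1607, 617, 25 and 2, with 30 lower. Leaving out a WT line gave 213 to 741 lower, 3096 to 5074 lost, 280 to 1102 kept and 31 to 157 line-only tiles. Lost tiles were 1273 with a limit of 10%, kept tiles 293 with 40% and 56 with 60%, and lower tiles 9 with a difference of 50 points. As shares of spermatid-methylated tiles, lost lay between 34.8% and 40.1% and kept between 1.56% and 2.82% over read, position and tile settings and unweighted means. With 1 line alone lost was 43.9% to 71.9% and kept 3.97% to 15.6%.

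Added after seeing the data: leaving out chromosome 18 gave a distance difference of 5.94 points, and spermatid-methylated windows were 219 with at least 50 reads. Germline windows below both lines by 1 point were 6 of 11 with at least 5 or 20 reads and 4 of 9 with at least 50. Against 1 line they were 7 with WT replicate 2 alone and 9 with WT replicate 1 alone.

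No paired analysis was possible because round spermatids have 1 library and share no replicate number by label with the lines. Depth limits single tiles: levels of 1 tile in a line rest on few cytosines that differ widely, and 0% allows up to 3 reads of the total.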

Other observations

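On the X chromosome, 95 tiles were at 80% or more in round spermatids, with means of 34.4% in WT replicate 1 and 18.9% in WT replicate 2. Of these 95, 29 were below 20% in both lines and 4 at 50% or more in both.

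Every chromosome from 1 to 19 had lower levels in WT replicate 2 than in WT replicate 1 at spermatid-methylated tiles. Means ranged from 25.6% on chromosome 18 to 30.4% on chromosome 16 in WT replicate 1, and from 12.7% on chromosome 11 to 17.5% on chromosome 14 in WT replicate 2. In windows of 1 Mb with at least 10 such tiles (167 windows), the mean of the lines lay between 9.28% and 31.2%, and WT replicate 1 was the higher line in 166. Pearson's r between the lines was 0.402 across these windows, as a description of windows that share both libraries.

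Tiles at intermediate levels in round spermatids were also lower in the lines. The 2397 tiles between 20% and 80% averaged 55.0% in round spermatids, 21.6% in WT replicate 1 and 11.5% in WT replicate 2. In the 535 tiles between 10% and 20% the means were 14.5%, 14.7% and 6.49% and the medians 14.1%, 8.15% and 1.83%.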
